A study of Mus musculus with 4 samples.

Results

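The interferon-stimulated genes described here are 37 genes picked by symbol from the 31053 genes of the mouse files, and all 37 were found. They are 3 sensors of foreign nucleic acid, 2 transcription factors, 17 inducible antiviral effectors, 7 membrane or secreted proteins, 5 interferon-inducible GTPases and 3 parts of the antigen processing machinery. Their counts were read in 4 droplet single-cell libraries of mouse bone marrow (10x Chromium, version 3 chemistry), 1 library for each of 2 genotypes and 2 sorts. In the STAT5 KO mice (Vav1-Cre/+STAT5abfl/fl) both Stat5 genes carry floxed alleles, and Vav1-Cre, a Cre recombinase made in blood cells, deletes them there. The control (Vav1-Cre/+STAT5ab+/+) carries the same Cre and unfloxed Stat5 genes, so both genotypes express the recombinase. The KLS libraries hold lineage-negative, c-Kit+ Sca-1+ stem and progenitor cells from animals aged 8 to 12 weeks. The MSC libraries hold cells freed from bone by collagenase and sorted as CD45- Ter119 negative or low, CD71-, Sca-1+ and CD140a+ from animals aged 6 to 8 weeks. The protocol names 4 mice without saying how they were divided over the libraries. With 1 library per genotype and sort no difference has a replicate check, so every interval below is a 95% interval for counting error only and no p-value is given.

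Interferons are secreted proteins that warn cells of infection. Type I interferons bind IFNAR1 and IFNAR2, and JAK1 and TYK2 then activate STAT proteins, which join IRF9 and bind the interferon-stimulated response element (ISRE) in the promoters of these genes. Interferon gamma acts through the GAS element, which STAT proteins, STAT5 among them, can bind as dimers. Blood stem cells are known to keep some interferon-stimulated genes on without infection.

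RefSeq promoter windows (GRCm38.p6, 250 bases before to 50 bases after each start) were matched by symbol for 29 of the 37 genes. The ISRE was searched on both strands as GAAA, any 2 bases, then GAAA, so that on the other strand it reads TTTC, any 2 bases, then TTTC, overlaps allowed. It was found in 17 of the 29 windows, against 3.99% of 27025 genes with a window. GAS, searched as TTCNNNGAA, was found in 9 of 29, against 9.55% of all genes. Of the 7 genes with a window that were called lower in STAT5 KO KLS cells, as described below, 5 held an ISRE match, and 12 of the 22 other matched members did. Matches are descriptions of these letters and not evidence of binding. The 200 bases before the RefSeq start are shown for those 5 genes, written on the strand of the gene with the ISRE matches in capitals, to show where the matches lie in called genes. Irf7 and Oasl2, also called lower, had no match in their windows.
Isg15, chr4:156200819-156201018, minus strand: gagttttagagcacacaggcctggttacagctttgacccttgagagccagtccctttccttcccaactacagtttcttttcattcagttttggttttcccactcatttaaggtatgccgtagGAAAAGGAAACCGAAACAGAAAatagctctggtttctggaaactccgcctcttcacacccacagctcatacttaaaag
Ifit1, chr19:34640689-34640888, plus strand: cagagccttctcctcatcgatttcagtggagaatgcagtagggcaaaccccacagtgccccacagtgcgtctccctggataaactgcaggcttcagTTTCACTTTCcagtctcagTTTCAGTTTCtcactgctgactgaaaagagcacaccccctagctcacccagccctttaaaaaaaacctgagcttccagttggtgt
Ifit3, chr19:34583329-34583528, plus strand: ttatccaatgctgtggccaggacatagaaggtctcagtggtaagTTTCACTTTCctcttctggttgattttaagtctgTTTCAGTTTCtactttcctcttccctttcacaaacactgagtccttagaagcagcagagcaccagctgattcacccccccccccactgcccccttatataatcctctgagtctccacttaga
Oas1a, chr5:120907526-120907725, minus strand: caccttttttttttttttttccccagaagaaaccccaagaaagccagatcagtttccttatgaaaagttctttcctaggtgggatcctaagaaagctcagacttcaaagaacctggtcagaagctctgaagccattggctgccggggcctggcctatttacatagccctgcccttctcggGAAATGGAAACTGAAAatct
Rsad2, chr12:26456453-26456652, minus strand: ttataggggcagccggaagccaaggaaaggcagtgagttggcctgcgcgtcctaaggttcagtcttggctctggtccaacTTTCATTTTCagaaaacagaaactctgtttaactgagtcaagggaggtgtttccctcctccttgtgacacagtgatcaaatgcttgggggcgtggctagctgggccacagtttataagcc
The Isg15 window held 3 overlapping matches, at 78, 72 and 66 bases before the start. Ifit1, Ifit3 and Oas1a held 2 each, and Rsad2 held 1 at 120 bases before the start. In Oas1a the matches began 20 and 14 bases before the start.

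The 4 libraries differed in size. After filtering, 3085 control and 6726 STAT5 KO cells remained in KLS, with median depths of 15136 and 10085 UMIs per cell, and 579 and 378 in MSC, with 2744 and 2496. The 2 KLS files hold 11258 barcodes, of which 10441 passed the cell filter, beside 10008 sorted KLS cells, 605 of them negative for CD45, given in the design text. Among cells that passed, 374 and 272 KLS barcodes and 224 and 188 MSC barcodes (control and STAT5 KO) also occurred in another library. A KLS cell whose barcode held more UMIs elsewhere was left out, as was an MSC cell whose barcode held more in the other MSC library. Stat5a stood at 68.5 CPM (UMIs scaled to equal library totals) in control and 6.74 in STAT5 KO KLS cells, and Stat5b at 60.8 and 4.49. In the stromal cells of the MSC libraries Stat5a stood at 43.8 and 61.6 CPM, and Stat5b at 56.5 and 49.7. Kit, a KLS sort marker, was at 210 and 178 CPM in KLS, and Pdgfra, which encodes CD140a, at 286 and 236 CPM in the MSC libraries. The MSC libraries also held cells rich in erythroid transcripts, described below. The 37 genes together made up 4348 and 3958 CPM in KLS and 3875 and 2748 CPM in MSC.

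The first comparison asked how the interferon-stimulated genes differ in stem and progenitor cells that lack STAT5. All 37 genes had at least 20 UMIs over the 2 KLS libraries. A gene was called where the libraries differed at least 1.5-fold on log2(CPM + 1) and the counting interval of the plain CPM ratio excluded no difference. The members were chosen with earlier results of these data known, so their contrast with all tested genes is not independent of those results. In STAT5 KO cells 10 of the 37 were called lower, where 2.32% of 13976 tested genes were called lower. No member was called higher, where 1.02% of tested genes were. The median log2 ratio of the members on log2(CPM + 1) was -0.31, beside -0.01 over all tested genes, and 31 of 37 were below 0 where 52.4% of all tested genes were. Counting intervals lay below 0 for 29 members and above 0 for 4. The share of all tested genes with such intervals was not computed. At these UMI totals an interval can exclude 0 for a small ratio, as for Tap1 at -0.06 (-0.11 to -0.02). The 10 were Irf7, 8 of the 17 effectors and Ifi27l2a.

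**Figure D1:**
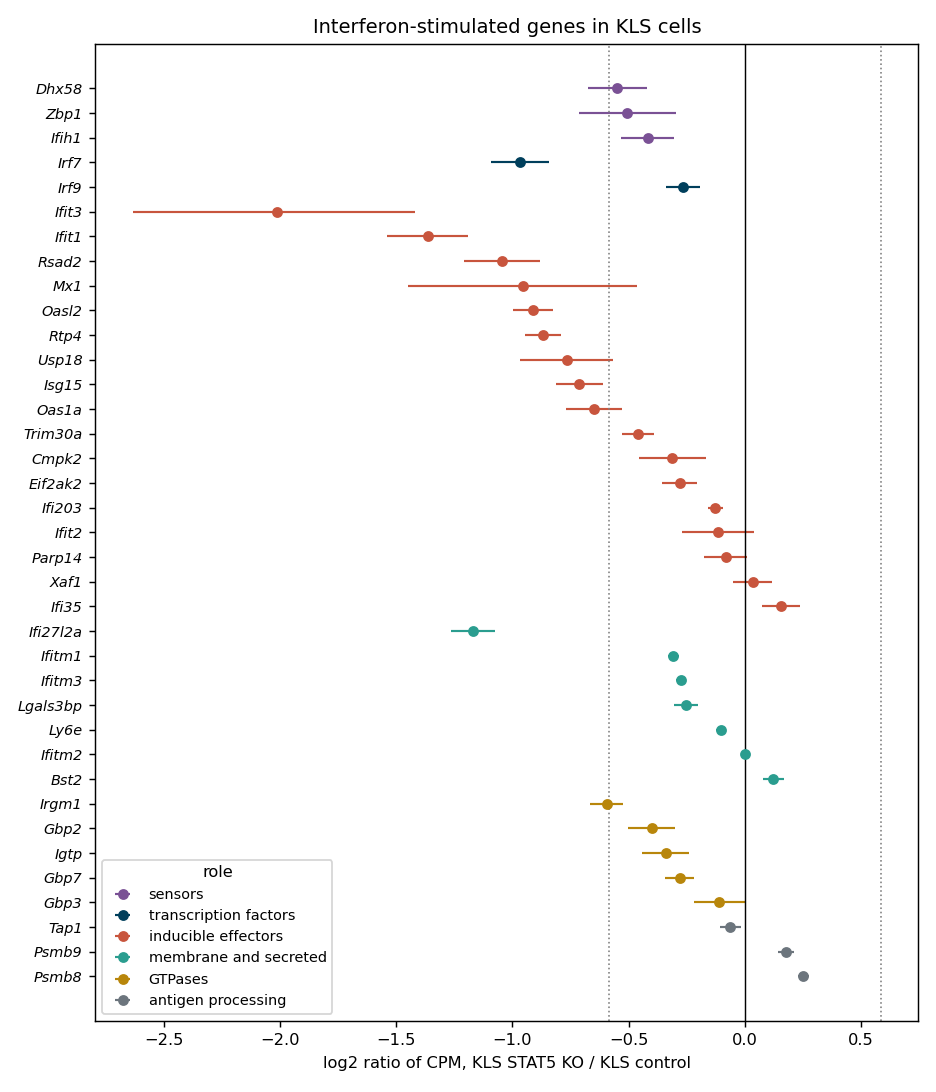
Log2 ratio of CPM, STAT5 KO over control, for the 37 genes in KLS cells, 1 library per genotype, grouped by role. Points are plain ratios, lines are 95% counting intervals, and dotted lines mark 1.5-fold. The lowest points are Ifit3 at -2.01 and Ifit1 at -1.36, and the highest is Psmb8 at 0.25.

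Among the sensors, Ifih1 (MDA5) and Dhx58 (LGP2) bind viral RNA and Zbp1 binds Z-form nucleic acid. Ifih1 measured 24.0 CPM in control and 18.0 in STAT5 KO KLS cells, with a log2 ratio of -0.42 (-0.53 to -0.31). Dhx58 measured 20.1 and 13.7 CPM, a log2 ratio of -0.55 (-0.67 to -0.42), and Zbp1 7.27 and 5.12 CPM, a log2 ratio of -0.51 (-0.72 to -0.30). In each the STAT5 KO library was the lower one beyond counting error, and none of the 3 passed 1.5-fold. Dhx58 lies on chromosome 11, 0.155 Mb from Stat5a, and Ifi35 lies 0.563 Mb away. The other members on that chromosome, Lgals3bp, Xaf1, Igtp and Irgm1, lie 17.5 Mb or farther from Stat5a. The part of flanking DNA linked to the floxed locus was not tested.

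The transcription factors differed from each other in size of ratio. Irf7, which drives type I interferon genes and is itself induced by interferon, measured 23.9 CPM (22.6 to 25.3) in control and 12.2 (11.5 to 13.0) in STAT5 KO. The intervals did not overlap and STAT5 KO was 1.95-fold lower, with a log2 ratio of -0.97 (-1.09 to -0.84). Irf9, a DNA-binding partner of STAT2, measured 52.4 and 43.6 CPM. Its log2 ratio of -0.27 (-0.34 to -0.19) was below 0 beyond counting error but was not called.

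Among the effectors, the IFIT proteins bind viral RNA. Ifit1 fell from 14.8 CPM (13.7 to 15.9) in control to 5.73 (5.21 to 6.30) in STAT5 KO, a log2 ratio of -1.36 (-1.54 to -1.19). Ifit3 fell from 1.74 to 0.43 CPM, on 89 and 33 UMIs, a log2 ratio of -2.01 (-2.63 to -1.42). Ifit2, in the same gene cluster, measured 11.5 and 10.6 CPM, and its interval spanned 0 (-0.27 to 0.04). The 3 IFIT genes thus did not share one ratio: Ifit1 and Ifit3 were called and the interval of Ifit2 lay above both of theirs. Ifit3 has a near-identical copy, Ifit3b, and reads of the copies may have been split by the authors' counting.

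Rsad2 (viperin), an enzyme that makes a chain-terminating nucleotide, fell from 14.4 CPM (13.4 to 15.5) to 7.00 (6.42 to 7.62), a log2 ratio of -1.04 (-1.21 to -0.88). Its neighbour Cmpk2, a mitochondrial nucleotide kinase, measured 14.2 and 11.4 CPM and was not called, with a log2 ratio of -0.31 (-0.46 to -0.17). Oasl2 fell from 48.3 CPM to 25.7, a log2 ratio of -0.91 with CPM intervals of 46.4 to 50.3 and 24.6 to 26.8, and Oas1a, which makes the messenger that switches on RNase L, from 22.9 to 14.6, a log2 ratio of -0.65 (-0.77 to -0.53). The intervals of the libraries were separate for each of these 4 genes.

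Isg15, a ubiquitin-like protein joined to other proteins, fell from 31.8 CPM (30.3 to 33.4) to 19.4 (18.5 to 20.5), a log2 ratio of -0.71 (-0.81 to -0.61). Usp18, the protease that removes ISG15 and restrains IFNAR signalling, fell from 8.80 to 5.17 CPM, a log2 ratio of -0.77 (-0.97 to -0.57). Rtp4, a chaperone that limits virus replication, fell from 58.2 to 31.9 CPM, a log2 ratio of -0.87 (-0.95 to -0.79). The conjugate and its protease were thus lower by similar ratios, with intervals that overlap.

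Of the other effectors, Mx1, a dynamin-like antiviral GTPase, was near the detection limit, with 83 and 64 UMIs or 1.62 and 0.84 CPM. Its plain log2 ratio was -0.95 (-1.45 to -0.47), but on log2(CPM + 1) it was -0.51 and it was not called. Trim30a measured 64.8 and 47.1 CPM, a log2 ratio of -0.46 (-0.53 to -0.39), and Eif2ak2 (PKR), which halts translation on double-stranded RNA, 51.3 and 42.2 CPM, a log2 ratio of -0.28 (-0.36 to -0.21). Both were below 0 beyond counting error and neither was called. Ifi203, a member of the DNA-binding HIN-200 family, measured 258 and 236 CPM. The intervals of Parp14 (-0.17 to 0.01) and Xaf1 (-0.05 to 0.12) spanned 0. Ifi35 was higher in STAT5 KO, at 37.4 and 41.6 CPM, with a log2 ratio of 0.15 (0.07 to 0.24).

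Among the membrane and secreted proteins, Ifi27l2a, a small interferon-inducible protein, fell from 43.7 CPM (41.9 to 45.6) to 19.4 (18.5 to 20.4), a log2 ratio of -1.17 (-1.27 to -1.07). The IFITM proteins block entry of viruses through membranes. Ifitm1 measured 520 and 420 CPM and Ifitm3 588 and 486 CPM, with log2 ratios of -0.31 and -0.27, while Ifitm2 stood at 591 and 592 CPM. Bst2 (tetherin), which holds budding virus at the cell surface, was 134.8 and 146.8 CPM, with the STAT5 KO library the higher one (log2 ratio 0.12, 0.08 to 0.17). Ly6e and the secreted Lgals3bp had log2 ratios of -0.10 and -0.25. Only Ifi27l2a of these 7 was called.

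None of the GTPases, which attack the vacuoles of intracellular microbes, was called. Irgm1 stood just outside the threshold, at 63.6 CPM in control and 42.1 in STAT5 KO, a log2 ratio of -0.58 on log2(CPM + 1). It was called when doublets were kept, when each cell's CPM was averaged and when hemoglobin, mitochondrial and Malat1 counts were left out of the totals. Oas1a, at -0.61 on the same scale, stood just inside and was not called when cells were averaged or when the control's gate shares were imposed on the STAT5 KO cells. Usp18 was not called when cells were averaged, and with a pseudocount of 10 CPM Ifit3, Isg15, Oas1a, Rsad2 and Usp18 were not called. Gbp2, Gbp7 and Igtp had log2 ratios of -0.40, -0.28 and -0.34, and Gbp3, at -0.11 (-0.22 to 0.00), was nearest to 0. Igtp overlaps Irgm2, and reads shared by the genes could not be separated.

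Of the 3 antigen processing genes, 2 were higher in STAT5 KO and 1 was lower. Psmb8, a catalytic subunit of the immunoproteasome, measured 438 CPM (432 to 444) in control and 521 (516 to 526) in STAT5 KO, and Psmb9, another such subunit, 199 and 225. Both were higher in STAT5 KO beyond counting error, with log2 ratios of 0.25 and 0.18, and neither was called. Tap1, which carries peptides into the endoplasmic reticulum, measured 127 and 122 CPM, a log2 ratio of -0.06. Ifi35 and Bst2, outside this group, also had intervals above 0, with log2 ratios of 0.15 and 0.12. The median over the 3 genes was 0.18, beside -0.51 over the effectors.

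The genes around the response were taken from lists of the same pathway, also chosen with earlier results of these data known. Over all 13976 genes tested in KLS cells, 2.32% were called lower and 1.02% higher. Of 10 interferon genes none could be tested, with 0 UMIs in control and 1 in STAT5 KO over all KLS cells. None of 9 tested receptor and signal genes was called, and their median log2 ratio was -0.11: Stat2 measured 17.5 and 16.0 CPM, Ifnar1 41.2 and 38.6 and Ifnar2 104 and 92.4. None of the 5 other interferon regulatory factors and none of the 9 tested sensors and adaptors was called. None of the 3 tested chemokines induced by interferon gamma was called either, with a median of 0.16: Cxcl10 measured 3.19 and 4.61 CPM, a log2 ratio of 0.53 (0.26 to 0.81), and Ccl5 7.67 and 6.85 CPM. Cxcl9 had a log2 ratio of 0.30 (-0.21 to 0.83) on 50 and 92 UMIs. Of 8 tested genes that restrain the response, Socs3, an inhibitor of JAK signalling, was called higher, at 9.07 and 14.2 CPM, while Socs1 measured 10.6 and 7.29 CPM and was not called. Of 32 further interferon-stimulated genes, 4 were called lower and none higher: Ifi44 went from 21.2 to 10.4 CPM, Iigp1 from 23.2 to 13.3, Oasl1 from 8.31 to 4.91 and Slfn5 from 8.60 to 3.12. The median of these 32 was -0.18. In summed level, 5 macrophage markers stood at 16.6 and 14.1 CPM in control and STAT5 KO, and 4 plasmacytoid dendritic cell markers at 16.4 and 13.7 CPM with Klk1 at 0 in both. The part of such cells in the ratios was not tested.

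Cells were then divided by lineage transcripts, since the shares of cells in the gates below differed between the libraries. The Mpo gate took cells with Mpo, a granule enzyme of myeloid progenitors, at 1000 CPM or more. The Dntt gate (lymphoid-primed) and the Pf4 gate (megakaryocyte-primed) took cells with that gene at 200 CPM or more. Each of the 3 took cells outside the other 2. The Hlf gate took cells with at least 1 UMI of Hlf, a stem cell transcription factor, and none of the lineage gates. The Hlf gate held 1591 control and 1950 STAT5 KO cells, or 51.6% (49.8 to 53.3) and 29.0% (27.9 to 30.1) of the library. The Mpo gate held 281 and 1377 cells, or 9.11% (8.12 to 10.2) and 20.5% (19.5 to 21.5). The Dntt gate held 851 and 1753 cells and the Pf4 gate 104 and 246. Cells in no gate made up 5.74% and 9.99%, and cells in more than 1 gate 2.63% and 10.8%. Gate shares can depend on depth, since the Hlf gate needs 1 UMI and control cells were deeper (median 15136 and 10085 UMIs). The part of depth in these shares was not tested.

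The median member was lower in STAT5 KO inside each gate, while most members were not called. The Hlf gate had 6 members called lower (2.06% of 12877 tested genes) and the Dntt gate 11 (2.84% of 12164). The Pf4 gate had 12 (3.16% of 10080) and the Mpo gate 4 (2.87% of 11664). No member was called higher in these 4 gates, where 1.96%, 1.59%, 3.31% and 2.12% of tested genes were. The median log2 ratios were -0.20, -0.27, -0.30 and -0.19, beside 0.02, 0.02, 0.02 and 0.03 over all genes tested in the gate. Of the 37 members, 23 were lower in all 4 gates and 2 were higher in all 4, and 7 had a counting interval above 0 in at least 1 gate. For the counts of higher members the share over all genes was not computed. Of the 35 tested in all 4, 22 were lower in all of them and 9 had counting intervals below 0 in all of them, beside 18.8% and 2.76% of the 9987 genes tested in all 4 gates. Those 9 were Irf7, Isg15, Ifit1, Oasl2, Rsad2, Rtp4, Trim30a, Ifitm3 and Irgm1. With the control's gate shares imposed on the STAT5 KO cells, 9 of the 10 called members were still called, without Oas1a, and the median was -0.24.

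**Figure D2:**
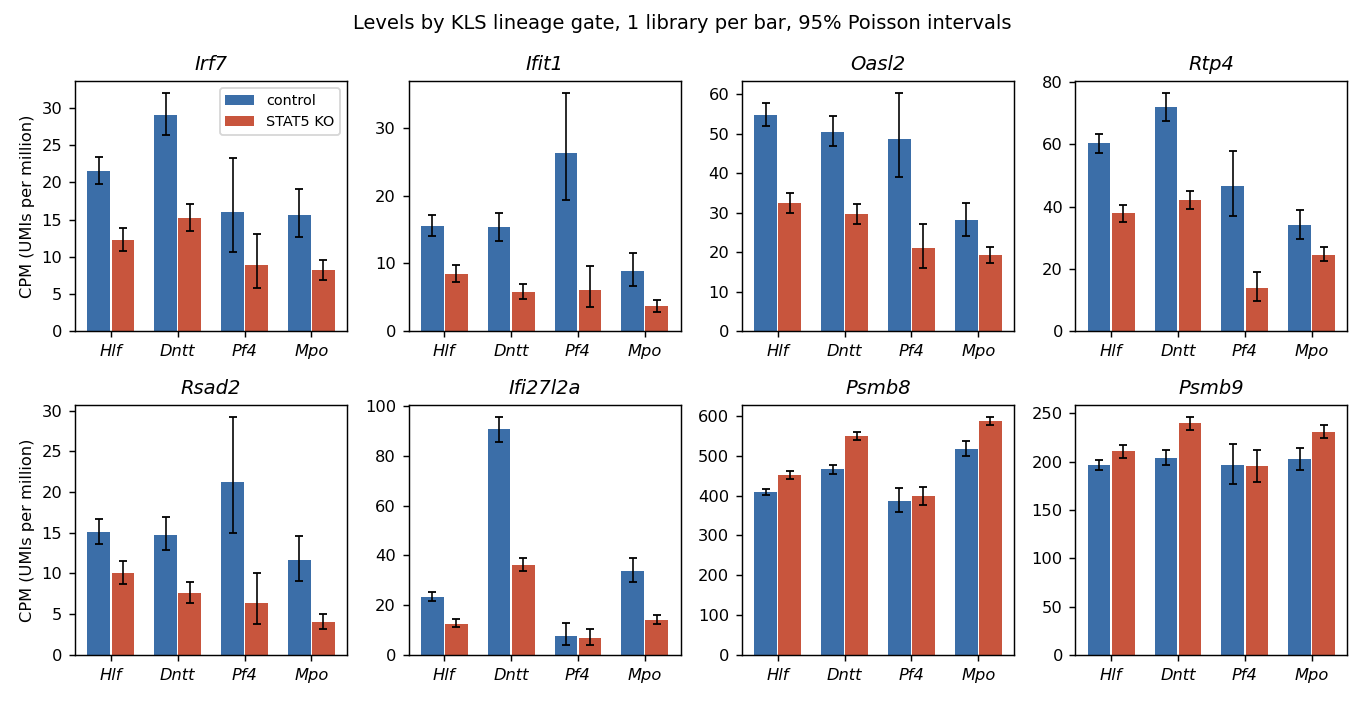
CPM of 8 genes in the Hlf, Dntt, Pf4 and Mpo gates of KLS cells, control and STAT5 KO side by side, 1 library per bar with 95% Poisson intervals. Irf7, Ifit1, Oasl2, Rtp4 and Rsad2 are lower in STAT5 KO in all 4 gates, while Psmb8 is as high or higher.

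Irf7 and Ifit1 were called lower in all 4 gates. Irf7 measured 21.5, 29.1, 16.1 and 15.6 CPM in the Hlf, Dntt, Pf4 and Mpo gates of the control and 12.3, 15.2, 8.87 and 8.17 CPM in those of STAT5 KO, and its log2 ratios stayed between -0.94 and -0.81. Ifit1 measured 15.6, 15.3, 26.4 and 8.87 CPM in the control gates and 8.46, 5.77, 6.03 and 3.67 CPM in STAT5 KO. The control Pf4 value of Ifit1 rests on 46 UMIs (19.3 to 35.2 CPM). Rsad2 was called lower in the Dntt, Pf4 and Mpo gates and measured 15.1 and 10.0 CPM in the Hlf gate, where it was not called. Oasl2 and Rtp4 were called in the Hlf, Dntt and Pf4 gates, and in the Mpo gate their log2 ratios were -0.54 (-0.81 to -0.27) and -0.47 (-0.71 to -0.23).

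Ifi27l2a was highest in the lymphoid-primed gate of both libraries. In control it measured 90.6 CPM (85.7 to 95.7) in the Dntt gate, 23.5 in the Hlf gate, 33.9 in the Mpo gate and 7.46 in the Pf4 gate. In STAT5 KO it measured 36.2, 12.6, 14.1 and 6.74 CPM in the same order. It was called lower in all but the Pf4 gate, where the intervals overlapped on 13 and 19 UMIs. Ifitm1 differed in direction between gates: 666 and 516 CPM in the Hlf gate, 400 and 204 in the Pf4 gate, where it was called lower, and 488 and 550 in the Mpo gate, where STAT5 KO was higher by a log2 ratio of 0.17 (0.11 to 0.23). Psmb8 had intervals above 0 in the Hlf, Dntt and Mpo gates and spanned 0 in the Pf4 gate. Of the cells in no gate, 177 in control and 672 in STAT5 KO, 4 members were called lower (1.69% of tested genes) and Parp14 was called higher (3.49%). Among the 81 and 728 cells in more than 1 gate, 12 were called lower (3.58%) and none higher (3.34%).

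Within each library, the stem-like Hlf gate was compared with the Mpo gate. In control, 6 of 37 members were called higher in the Hlf gate, where 13.5% of 12361 genes were, and none lower, where 2.56% were. In STAT5 KO, 7 of 36 tested members were called higher, where 12.4% of 12462 genes were, and 1 lower, where 2.05% were. The count of higher members was thus near the share over all genes. The median was 0.32 in control and 0.34 in STAT5 KO, beside 0.14 and 0.13 over all genes. Gbp2 measured 36.8 CPM in the Hlf gate and 17.7 in the Mpo gate of the control, and 30.9 and 17.2 in STAT5 KO. Oasl2 measured 54.7 and 28.1 CPM in control and 32.4 and 19.3 in STAT5 KO. Ifih1, Ifit1, Rtp4 and Gbp7 were also called higher in both libraries, and Rsad2 in STAT5 KO alone (10.0 and 3.98 CPM), whose difference from the control was not tested. Gbp3 went the other way, at 21.1 and 30.6 CPM in control and 18.4 and 28.3 in STAT5 KO. Ly6e, Bst2 and Psmb8 were lower in the Hlf gate of both libraries without being called.

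**Figure D3:**
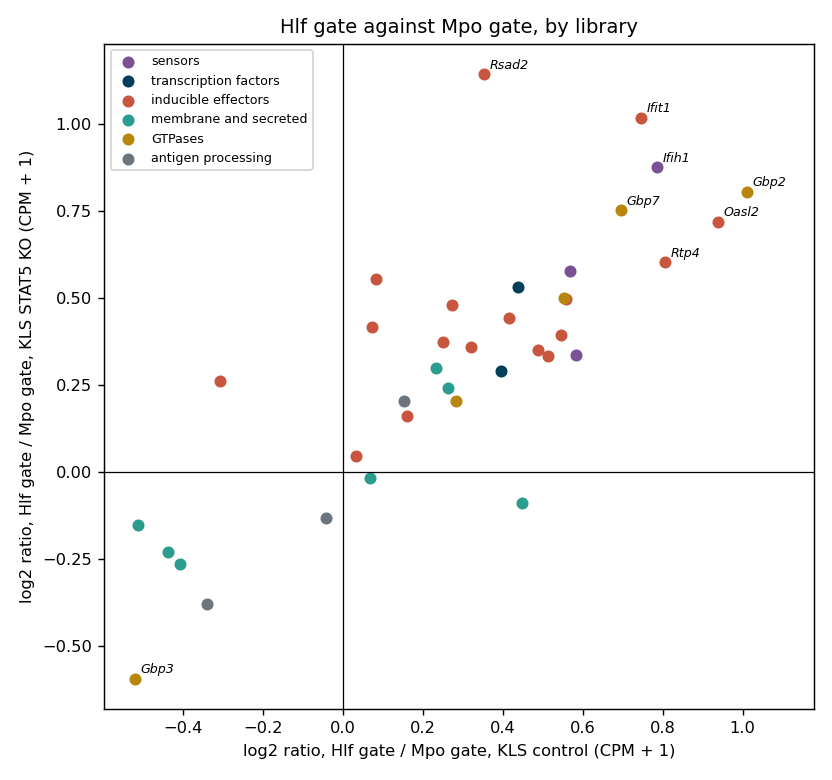
Log2 ratio on log2(CPM + 1) of the Hlf gate over the Mpo gate, control on the x axis and STAT5 KO on the y axis, 1 point per gene coloured by role. Called members are named, and most points lie in the upper right, with medians of 0.32 and 0.34.

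The share of KLS cells with a UMI was read at an equal depth of 5000 UMIs per cell, drawn at random from deeper cells, which left out 41 control and 905 STAT5 KO cells that were shallower. Ifit1 was seen in 6.14% (5.32 to 7.06) of the control and 2.34% (1.96 to 2.76) of the STAT5 KO cells, or 11.3% and 4.19% without thinning. Rtp4 was seen in 22.9% and 13.5% (40.9% and 22.5% without thinning) and Ifi27l2a in 14.3% and 7.52% (27.5% and 13.7%). Each was seen in fewer STAT5 KO cells, and the intervals did not overlap. Ifitm2 was seen in 93.6% and 94.0% of cells and Psmb8 in 86.8% and 91.1% (98.6%, 97.4%, 96.9% and 95.3% without thinning). No cell type here is known to lack these genes, so the share that free RNA gives was not measured.

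Effectors were also counted per cell. At least 4 of the 17 effectors had a UMI in 779 of 3044 control cells, or 25.6% (24.0 to 27.2), and in 922 of 5821 STAT5 KO cells, or 15.8% (14.9 to 16.8). Without thinning the shares were 69.8% and 44.6%. The 1% of cells with the most effector UMIs held 6.35% of them in control and 6.21% in STAT5 KO, a like share in both. Single cells reached 15 effectors in control and 16 in STAT5 KO. In the MSC libraries, at an equal depth of 600 UMIs, 7 of 527 cells in control (1.33%, 0.54 to 2.72) and 7 of 341 in STAT5 KO (2.05%, 0.83 to 4.18) had at least 4, and the intervals overlapped. Without thinning the order was the opposite, at 4.66% and 2.91%.

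The MSC libraries were clustered without the 37 genes, giving 11 clusters. By markers, 5 were named: CXCL12-abundant stromal-like, osteolineage-like, chondrocyte-like, pericyte or smooth muscle-like and erythroid-like. The other 6 are called by their leading genes. Clusters with Alas2, the first enzyme of heme synthesis in red cell precursors, at 100 CPM or more held the erythroid-like cluster and an unnamed cluster led by Paqr9 and Ypel4, together 126 control and 97 STAT5 KO cells. The Alas2 criterion was set after the clusters were seen, since the unnamed cluster missed the marker rule. Stromal cells are all clusters but these 2 and the S100a8/S100a9 cluster, which carried Ptprc (CD45), and numbered 429 in control and 265 in STAT5 KO.

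Rsad2 in the MSC libraries was almost wholly a transcript of the clusters with Alas2. Of its 1335 UMIs, 1321, or 99.0% (98.2 to 99.4), lay there, although these clusters held 6.86% of all MSC UMIs. In the Paqr9/Ypel4 cluster Rsad2 measured 9254 CPM (8380 to 10195) in control and 11456 (10274 to 12737) in STAT5 KO. In the erythroid-like cluster it measured 4065 and 4980 CPM. In these clusters 86.5% (79.3 to 91.9) of the control and 86.6% (78.2 to 92.7) of the STAT5 KO cells had a UMI of Rsad2, at median depths of 649 and 633 UMIs. In stromal cells, at median depths of 3549 and 3402 UMIs, it was seen in 2.56% (1.29 to 4.54) and in 0 of 265 cells, which by the exact interval allows up to 1.38% of cells with a UMI and sets no limit on cells that express it. Rsad2 stands among the 10 leading genes of the Paqr9/Ypel4 cluster beside Trim10, Rhag and Tfdp2.

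Of the other members, 73.3% of Isg15 UMIs (69.0 to 77.3) and 71.2% of Cmpk2 UMIs (56.9 to 82.9) lay in the clusters with Alas2, and 37.3% of Irf9 UMIs did. Isg15 measured 1825 CPM (1598 to 2075) in control and 1302 (1058 to 1585) in STAT5 KO over both clusters, a log2 ratio of -0.49 (-0.84 to -0.14). Rsad2 over both clusters measured 5865 and 7522 CPM, a log2 ratio of 0.36 (0.20 to 0.52). Summed over both clusters, STAT5 KO was thus the lower library for Isg15 and the higher one for Rsad2. In the Paqr9/Ypel4 cluster Isg15 measured 3724 CPM in control and 1507 in STAT5 KO. In the erythroid-like cluster it measured 815 (633 to 1034) and 1169 (878 to 1525), the other direction with overlapping intervals. Isg15 was seen in 30.2% (22.3 to 39.0) and 24.7% (16.5 to 34.5) of the cells of these clusters. Zbp1, Ifit2, Ifit3, Oas1a, Mx1, Ifi203, Ifitm1, Ifi27l2a, Gbp2, Gbp3, Gbp7, Psmb8 and Tap1 had no UMI in these clusters, at this depth. Of 8 members tested there, 2 were called lower, Ifitm3 (23 and 0 UMIs) and Irgm1 (24 and 3), where 2.55% of 785 tested genes were, and none higher, where 14.5% were. The control UMIs of Ifitm3 came from only 2 of 126 cells. Irgm1 was seen in 7 of 126 control and 3 of 97 STAT5 KO cells, or 5.56% (2.26 to 11.1) and 3.09% (0.64 to 8.77). Both calls thus rest on few cells, and the counting interval does not cover variation between cells.

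**Figure D4:**
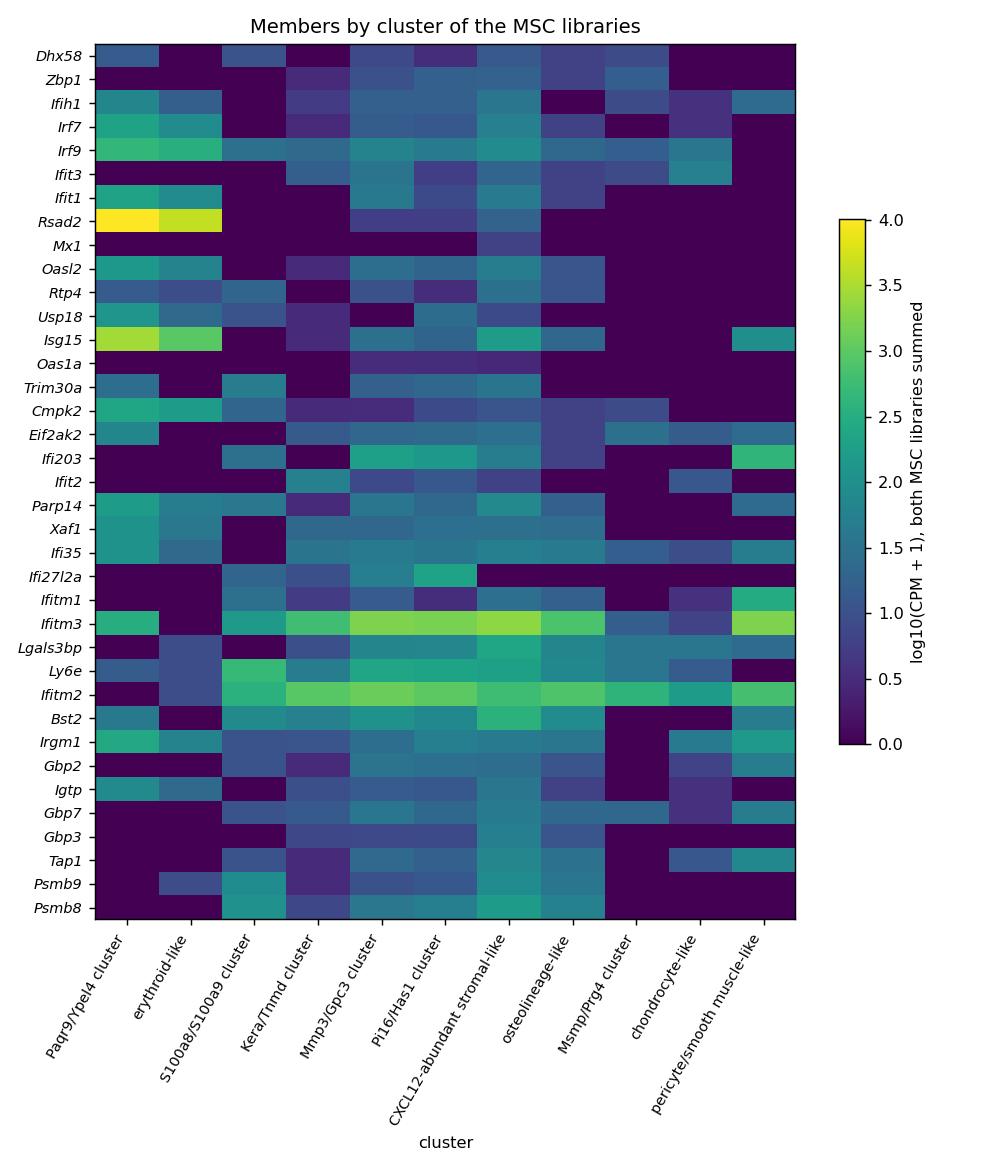
Level of the 37 genes on log10(CPM + 1), both MSC libraries summed, in the 11 clusters of the MSC libraries. Rsad2 and Isg15 are brightest in the 2 clusters at the left, Ifitm2 and Ifitm3 across most stromal clusters, and Ifi27l2a in the Pi16/Has1 cluster.

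The CXCL12-abundant stromal-like cluster, the main source of the niche chemokine CXCL12 in marrow, held 102 control and 54 STAT5 KO cells and 19.3% of MSC UMIs. It held 73.2% of Gbp3 UMIs, 65.4% of Psmb9, 61.3% of Bst2, 60.7% of Rtp4, 58.4% of Lgals3bp and 58.1% of Psmb8. Ifi27l2a had no UMI in it. Of its 116 UMIs, most lay in the unnamed cluster led by Pi16 and Has1, at 153 CPM (111 to 205) in control and 298 (216 to 402) in STAT5 KO. Ifitm3 was broad, with 2262 and 1863 CPM in the CXCL12-abundant cluster, 1800 and 1569 in the Mmp3/Gpc3 cluster and 1639 and 1471 in the Pi16/Has1 cluster. In the chondrocyte-like cluster Ifitm3 had 2 and 0 UMIs, and in the Msmp/Prg4 cluster 0 and 2.

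Over all MSC cells, 34 members could be tested. In STAT5 KO 2 were called higher, where 5.05% of 10168 tested genes were, and 6 lower, where 6.25% were. The median log2 ratio was -0.41, beside -0.07 over all tested genes. In stromal cells alone 31 could be tested, with 2 called higher (4.79% of 9840 genes) and 7 called lower (7.01%), and the median was -0.44, beside -0.11. The 6 members left out there were Dhx58, Usp18, Oas1a, Rsad2, Mx1 and Cmpk2, with 0 to 14 UMIs per library. Stat5a and Stat5b transcripts were present in the stromal cells of both libraries, as given above.

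The 7 called lower in stromal cells were Isg15, Ifi203, Bst2, Irgm1, Parp14, Ifitm3 and Ifitm2. Isg15 fell from 61.0 CPM (49.4 to 74.5) in control to 23.0 (14.9 to 34.0) in STAT5 KO, a log2 ratio of -1.41 (-2.10 to -0.76). Ifi203 fell from 91.5 to 38.6 CPM, a log2 ratio of -1.24 (-1.78 to -0.74). The intervals of the libraries were separate for both. Bst2 fell from 166 to 74.5 CPM, a log2 ratio of -1.16 (-1.54 to -0.79), and Irgm1 from 44.5 to 22.1 CPM on 70 and 24 UMIs. Parp14 had 54 and 19 UMIs. Ifitm3 fell from 1427 to 856 CPM and Ifitm2 from 900 to 581, log2 ratios of -0.74 and -0.63. Ifi203 overlaps Mndal, and the IFITM genes have close copies, so reads may be shared.

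Oasl2 and Ifi27l2a were called higher in stromal cells. Oasl2 had 22 UMIs in control and 29 in STAT5 KO, or 14.0 and 26.7 CPM, with a log2 ratio of 0.93 (0.08 to 1.80). Ifi27l2a had 54 and 60 UMIs, or 34.3 and 55.2 CPM, with a log2 ratio of 0.69 (0.13 to 1.24). Both intervals come close to 0. Ifit1 and Ifit3 measured 15.2 and 21.2 CPM and 16.5 and 28.5 CPM and were not called. By cluster the counts leaned in opposite directions, on few UMIs. In the CXCL12-abundant cluster Ifit1 had 21 UMIs in control and 4 in STAT5 KO, and the interval of its log2 ratio spanned 0 (-3.39 to 0.18). Ifit3 had 11 and 0 there, too few to be tested. In the Mmp3/Gpc3 cluster Ifit1 had 1 and 17, and Ifit3 had 2 and 13. The number of cells that held these UMIs is not given here.

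The stromal mixture differed between the libraries. The chondrocyte-like cluster held 6 control and 25 STAT5 KO cells, and 67076 of 1574455 and 294068 of 1087097 stromal UMIs. Imposing the control's cluster shares on the STAT5 KO cells moved the median to -0.068, beside -0.0089 over all tested genes, and 4 of the 7 were still called lower (4.45% of tested genes), without Ifitm2, Ifitm3 and Parp14. Inside the CXCL12-abundant cluster 22 members could be tested. None was called higher (3.9% of 4723 genes) and 4 were called lower (3.64%): Ifi35 with 26 UMIs in control and 4 in STAT5 KO, Ifi203 at 62.7 and 15.7 CPM, Bst2 at 442 (377 to 513) and 252 (186 to 334), and Irgm1 at 60.1 and 15.7. Of these, the STAT5 KO values of Ifi35, Ifi203 and Irgm1 rest on 3 or 4 UMIs. Isg15 was not called in this cluster, at 180 and 115 CPM, and its log2 ratio interval spanned 0 (-1.41 to 0.07). The median of the 22 was -0.55, beside 0.01 over all genes tested in the cluster.

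**Figure D5:**
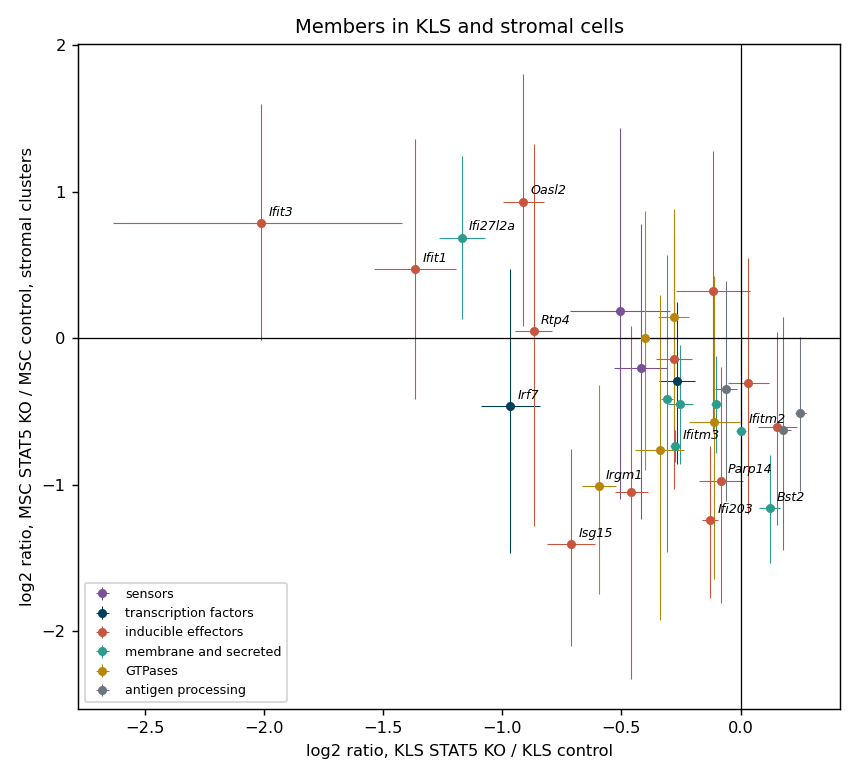
Log2 ratio of CPM, STAT5 KO over control, in KLS cells (x axis) and in stromal clusters of the MSC libraries (y axis), for the 31 members tested in both, with 95% counting intervals. Members called in either comparison are named. Oasl2 and Ifi27l2a are left of 0 in KLS and above 0 in stromal cells, and Bst2 is right of 0 and below it.

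Of the pathway lists in stromal cells, the chemokines induced by interferon gamma showed the lowest median, -1.75 over the 2 that could be tested. Over all 9840 genes tested in stromal cells, 7.01% were called lower and 4.79% higher. Cxcl9 fell from 113 to 26.7 CPM, on 178 and 29 UMIs, and Cxcl10 from 145 to 52.4 CPM, on 228 and 57. Irf8 was called lower among 4 interferon regulatory factors, at 31.1 and 12.9 CPM. Mb21d1, which encodes the DNA sensor cGAS, was called lower among 7 sensors and adaptors, on 28 and 7 UMIs. Of 20 further interferon-stimulated genes 4 were called lower: B2m, the light chain of MHC class I, at 1411 and 936 CPM, H2-K1, a class I heavy chain, at 1464 and 942, Tap2 at 66.1 and 33.1 and Trim25 at 26.7 and 12.9. Pias1, an inhibitor of STAT signalling, was called higher, at 40.7 and 62.6 CPM. No interferon gene had a UMI in the stromal cells of either library. Macrophage markers Adgre1, C1qa, C1qb and Fcgr1 were at 0 in the stromal cells of both libraries, with the fifth, Cd68, bringing the list to 27.3 and 27.6 CPM. The 7 erythroid markers together stood at 2004 (control) and 103 (STAT5 KO) CPM in stromal cells, and the part of erythroid RNA in the stromal ratios was not tested. The pathway levels are sums over stromal clusters whose shares differed between the libraries. The part of that mixture in the pathway ratios was not tested.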

How the data were processed

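The authors deposited raw UMI counts per gene and cell barcode for 4 libraries. Cell Ranger and the builds GRCm38 and mm10 are named per the submitters' processing notes, and the matrices give software version 3.1.0 per the file headers; reads that map to several genes, free RNA and strand were not addressed further here. The members and lists were chosen with earlier results of these data known. Cells were kept from 200 genes upward with mitochondrial UMIs of 10% or less, and the highest Scrublet scores (scanpy 1.11.5) were left out at 0.8% per 1000 barcodes, because its automatic threshold marked 0 or 1 cells per library. Counts were summed per library and gate and divided by the UMI total of the same cells (CPM). Intervals are exact Poisson for levels, conditional binomial for ratios and Clopper-Pearson for shares. With 1 library per group no test was run. Genes needed 20 UMIs over both sides, and a call needed 1.5-fold with a pseudocount of 1 CPM. MSC cells were clustered by Leiden (resolution 1) without the 37 genes. Any member could be named, called ones in order of size, and other genes only from the pathway and marker lists. The calls were checked on simulated Poisson counts, which hold no variation between cells or animals. The genes changed there lay well above the limit of 20 UMIs, so changes near it were not probed. edgeR 4.0.16 gave TMM factors for an alternative, and R 4.3.3 and Python 3.11.15 were used. Promoters come from RefSeq, positions from GENCODE. Cxcl11 and Mx2, on the pathway lists, were not found by symbol and were not analysed here, and 1 gene of the receptor and signal list and 1 of the erythroid marker list are not reported here. Protein sequences were not used here.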

Additional observations from a re-analysis of the deposited data

Results flagged for a closer look

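For 3 members the counting intervals of STAT5 KO over control lay on opposite sides of 0 in KLS cells and in the stromal cells of the MSC libraries. Oasl2 had a log2 ratio of -0.91 in KLS and 0.93 in stromal cells. Ifi27l2a had -1.17 and 0.69. Bst2 went the other way, with 0.12 and -1.16. Each ratio compares 1 library with 1 other, the KLS and MSC animals differed in age, and the difference between the populations was not tested.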

How the results depend on the processing

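No median over members changed sign under the alternatives run, and neither did any of the 10 members called in KLS cells or the 9 called in stromal cells. Among members not called, the sign changed under at least 1 alternative for 2 of 27 in KLS cells (Parp14 and Ifitm2) and for 9 of 22 in stromal cells (Ifih1, Zbp1, Ifit2, Eif2ak2, Rtp4, Xaf1, Ifitm1, Gbp2 and Tap1). Of 152 values that answer a comparison, 130 stayed within their limits and 22 moved. The KLS median ranged from -0.36 to -0.23, reaching -0.23 with a pseudocount of 10 CPM and -0.24 with the control's gate shares imposed on the STAT5 KO cells. KLS members called lower were 5 with that pseudocount (0.401% of all genes), 18 at the looser fold limit (9.84%) and 2 at 2-fold (0.394%). In all MSC cells 10 were called lower when cells needed 500 genes and mitochondrial UMIs of 5% or less (7.04%) and 10 at the looser fold limit (9.62%). There the members called higher were 6 with CPM averaged over cells, where the median was -0.14, and 1 with the pseudocount of 10, 1 with at least 100 UMIs and 0 at 2-fold. For these counts of higher members the share over all genes is not given here. The stromal median ranged from -0.57 to -0.068, the latter with the control's cluster shares imposed on the STAT5 KO cells. With gate thresholds doubled, the Hlf against Mpo median was 0.61 in control and 0.49 in STAT5 KO, and the median within gates was -0.085 for Mpo and -0.16 for cells in more than 1 gate. Cells with at least 3 effectors were 44.4% and 34.2% in control and STAT5 KO KLS; without thinning, those with at least 4 were 69.8% and 44.6%. In MSC they were 4.66% in control and 2.91% in STAT5 KO without thinning, the opposite order to the thinned 1.33% and 2.05%. The alternatives within gates, and the one leaving out only the cluster named erythroid-like, were chosen after seeing the data. No paired analysis was possible because each group has 1 library and the labels carry no replicate numbers. Low depth limits the MSC values, where several members rest on fewer than 20 UMIs per library, and 1 library per group leaves the variation between animals unknown.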
